A study of Mus musculus with 3 samples.

Results

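The genes described here are 38 genes of telomere maintenance and DNA double-strand break repair, measured in mouse ES cells from which Nr0b1 (Dax1) had been deleted. They were taken by gene name and read from every probe that carries one of those names: 53 of 55681 probes, or 38 of 35019 gene identifiers. They fell into 6 groups: shelterin (7 genes), telomerase (5), telomere chromatin and helicase genes (3), the Mre11a, Rad50 and Nbn (MRN) complex with Atm and Atr (5), homologous recombination (13) and end joining (5). RNA was collected from 3 groups with 3 single-colour arrays each. Nr0b1 KO/Y ES cells belonged to knockout lines that the study established from colonies isolated after exposure to 4-hydroxytamoxifen (Tx). The time since their deletion is not given in the sources used here. Nr0b1 fl-/Y +Tx cells had been exposed to Tx and were examined at day 4. Nr0b1 fl-/Y -Tx cells, which carry the floxed allele undeleted, served as the control. The cells of all groups are male, derive from the EB5 line, and carry piggyBac transgenes that constitutively express Egfp and MerCreMer, a Cre recombinase activated by Tx. The control thus shares the transgenes and the floxed allele but not the exposure to Tx, so at day 4 the exposure and the deletion cannot be told apart. In KO/Y cells the deletion and the isolation of colonies cannot be told apart either. The study handled more than one floxed line and its knockout derivative, and which of them was put on the arrays is not given in the sources used here. It describes the arrays as biological triplicates, and p-values here measure the spread between those arrays. The ES cells were kept with or without feeder fibroblasts treated with mitomycin C, and which applies to the arrays is likewise not given.

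Telomeres are kept from being read as broken DNA ends by shelterin, in which Terf1 and Terf2 bind the double-stranded repeat, Tinf2 joins them, Terf2ip rides on Terf2, and Acd ties the single-strand binders Pot1a and Pot1b to the rest. Telomerase adds repeats with the reverse transcriptase Tert and the H/ACA proteins Dkc1, Nhp2 and Nop10, which stabilise its RNA. Mouse ES cells have active telomerase, and they also lengthen telomeres by recombination in rare Zscan4-positive states. True double-strand breaks are recognised by the MRN complex, which activates the kinase Atm, and are then rejoined by the Ku proteins Xrcc5 and Xrcc6 with the kinase Prkdc, or copied from the sister chromatid with the help of Brca1, Brca2 and Palb2.

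The deleted gene checked the labels. Nr0b1 stood at -6.37, -6.20 and -6.22 on the KO/Y arrays, where its probe was not well above background, at -2.58, -2.66 and -2.42 on the +Tx arrays, and at 4.02, 4.18 and 4.10 on the -Tx arrays. These levels, like all levels below, are log2 signals relative to the 75th percentile of the same array. Zscan4c averaged 4.93 ± 0.10 in KO/Y, 4.44 ± 0.10 in +Tx and 1.18 ± 0.11 in -Tx cells (SD, n = 3 arrays each). Between 51.8 and 58.4% of probes were well above background per array, and no spot was saturated. All 16 ES cell marker genes were well above background on all 9 arrays. The summed linear signal of 14 feeder fibroblast markers was 934 to 998 times the 75th percentile on KO/Y arrays, 808 to 906 on +Tx arrays and 670 to 681 on -Tx arrays, and all 14 were above background on every array. The corresponding sums of 16 S phase genes were 429 to 456 on KO/Y, 521 to 560 on +Tx and 589 to 616 on -Tx arrays, and those of 14 G2 and M phase genes were 182 to 190 on KO/Y, 196 to 208 on +Tx and 239 to 248 on -Tx arrays. All 12 primitive endoderm markers were higher in KO/Y than in -Tx cells. The 3 -Tx arrays and 1 +Tx array lay on 1 slide, and the other 2 +Tx arrays and the 3 KO/Y arrays on another, so KO/Y and -Tx were never compared within a slide.

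The probes that read the genes with the largest changes are given here because the results turn on them. Only the opening 30 of the 60 bases of each are written out, 5′ to 3′, as the array files hold them. Terf2 was read by 3 probes, Tinf2 by 2 and Smc6 by 1. In the array's own annotation (mm9) the Terf2 probes lie on the minus strand at chr8:109599420-109599479, chr8:109600701-109600760 and chr8:109593822-109593881, the Tinf2 probes on the minus strand at chr14:56298352-56298411 and chr14:56298188-56298351, and the Smc6 probe on the plus strand at chr12:11326452-11326511. They start at positions 2406, 1122 and 2084 of the RefSeq transcripts they were designed on (2 different ones for Terf2), 1348 and 1408 of Tinf2, and 5463 of Smc6.
Terf2 probe at 2406: atggcttccttgcattgggtgtactcttac
Terf2 probe at 1122: tccccatcatcaccagcccacaaacacaag
Terf2 probe at 2084: tatgttgagcccagatgagagattttttca
Tinf2 probe at 1348: taccataggggacttggttttggactctga
Tinf2 probe at 1408: ggagtttttgaaaaactaccagaagacgaa
Smc6 probe at 5463: agctttggtttcaatcataagtgaagcctt
The Tinf2 probe at 1408 covers 60 bases of RNA but a longer stretch of the genome, so it crosses an exon junction. In each gene with several probes the brightest one, listed first for Terf2 and Tinf2, stood for the gene.

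In KO/Y ES cells the prevailing difference from -Tx cells was a lower level of these genes. Of the 37 members that could be tested, 23 were lower and 2 were higher, and 12 did not pass (limma, adjusted p under 0.05). Over all 22441 genes tested the same rule called 26.4% lower and 20.5% higher. The median log2 fold change was -0.39 over the members, against -0.06 over all genes. Most of the changes were small: past 2-fold on the brightest probes only Terf2 was lower and only Smc6 was higher, where 2.84 and 4.72% of all genes passed in those directions. This depended on the probe. The other Terf2 probes gave -0.93 and -0.58, under 2-fold, and the other Tinf2 probe gave -1.14, past 2-fold (adjusted p over all probes = 5.98e-06). On 25 members the KO/Y arrays lay below every -Tx array without overlap, and on 2 above, against 33.2 and 24.5% of all genes. In the same comparison all 14 fibroblast markers were higher, 9 of 16 ES cell markers were lower and 2 higher (median -0.38), and 12 of 15 S phase and 11 of 14 G2 and M phase genes tested were lower. Their part in the members' counts was not tested. In such bulk RNA, fewer cells of a type and less RNA per cell cannot be told apart. With slide as a term in the fit, which rests on the +Tx arrays being on both slides, 16 members were lower and 1 higher, against 12.2 and 9.57% of all genes in the same fit. In that fit KO/Y is tied to -Tx only through the single +Tx array on the slide of the -Tx arrays.

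After 4 days with Tx, 13 of 37 members were lower than in -Tx cells, 2 were higher and 22 did not pass, where 14.7% of all genes were called lower and 11.9% higher. The median was -0.15 for the members and -0.06 for all genes, and no member passed 2-fold (0.758% of all genes lower and 1.75% higher). On 17 members the +Tx arrays lay below all -Tx arrays and on 3 above, against 28.9 and 18.2% of all genes. With slide as a term 8 were lower and 2 higher (5.16 and 4.75% of all genes). The differences in that fit also rest on the single +Tx array that shares a slide with the -Tx arrays, so it is no separate check of them. Between the single +Tx array and the 3 -Tx arrays of the shared slide 4 were lower and 2 higher (3.85 and 3.23% of all genes), a count in which the spread comes from the -Tx arrays alone and the lone +Tx array is assumed to vary like them. Between KO/Y and +Tx cells, 12 members were lower, 2 higher and 23 did not pass, against 14.1% lower and 12.1% higher over all genes. The median here was -0.16 over the members and 0.01 over all genes. No member passed 2-fold in this comparison, where 1.05% of all genes passed lower and 2.37% higher. The KO/Y arrays lay below all +Tx arrays for 17 members and above for 2, where 21.3 and 18.4% of all genes did so. With slide as a term 10 members were lower and 1 higher (11.1 and 9.14% of all genes), and within the shared slide, with 3 KO/Y and 2 +Tx arrays, 8 were lower and none higher (5.98 and 6.47%). The 3 comparisons share arrays and are not independent of each other.

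**Figure D1:**
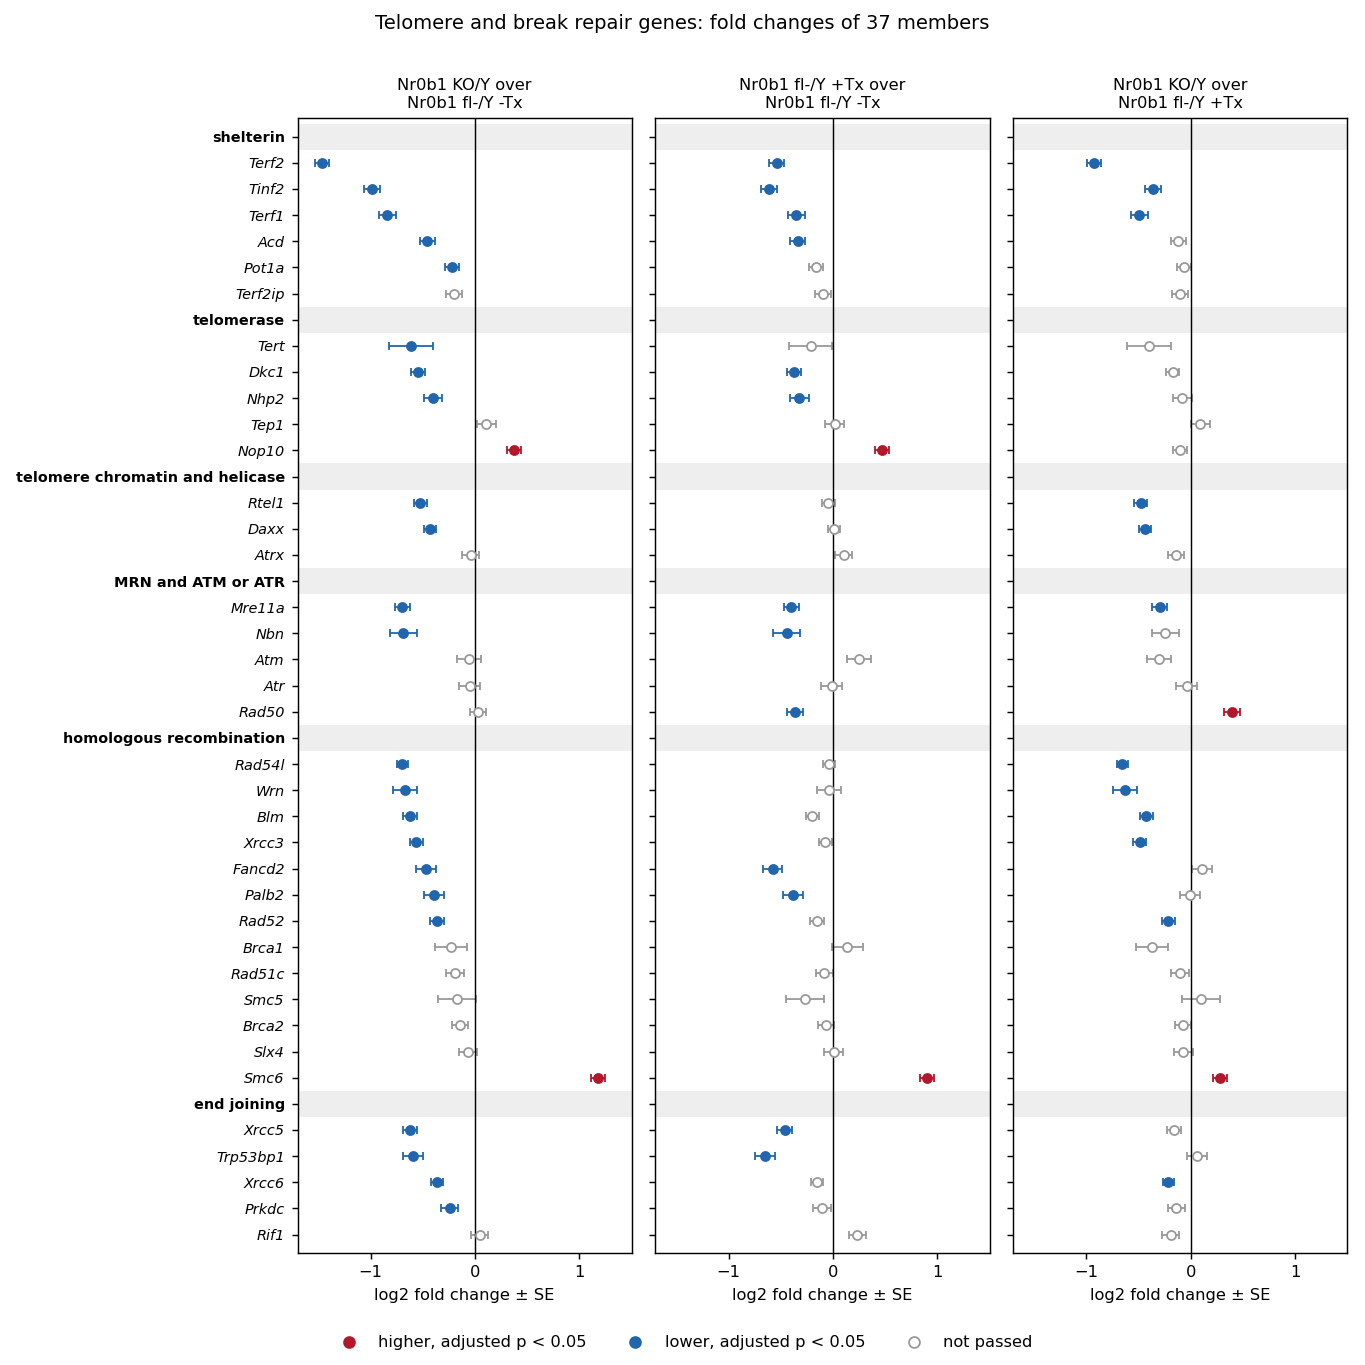
Log2 fold change with its standard error (limma, 9 arrays) for each of the 37 members tested, by functional group, in KO/Y over -Tx, +Tx over -Tx and KO/Y over +Tx. Filled points passed an adjusted p of 0.05 (red higher, blue lower). In the left panel 23 points are blue and 2, Smc6 and Nop10, are red, with Terf2 farthest to the left at -1.46.

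Shelterin had the lowest median fold change of the 6 groups in KO/Y over -Tx. Of its 6 genes tested, 5 were lower in KO/Y than in -Tx cells, 4 were lower in +Tx than in -Tx cells and 3 were lower in KO/Y than in +Tx cells, and none was higher in any comparison, where 26.4, 14.7 and 14.1% of all genes were called lower. The group's median log2 fold change was -0.65, -0.34 and -0.24 in that order. With slide as a term the calls of Acd and Pot1a, and that of Terf1 in +Tx over -Tx, were lost.

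Terf2, whose protein folds the chromosome end into a loop and holds back end joining, had the largest fall of the members in both comparisons of KO/Y cells on its brightest probe, though not in +Tx over -Tx, where Trp53bp1, Tinf2 and Fancd2 fell further. It stood at 1.10, 0.87 and 1.03 on KO/Y arrays, at 1.90, 1.91 and 1.97 on +Tx arrays and at 2.43, 2.49 and 2.47 on -Tx arrays. The 3 groups formed 3 separate bands with no overlap. KO/Y was 2.76-fold lower than -Tx (log2 fold change -1.46, SE 0.07, adjusted p = 1.21e-06), +Tx was 1.45-fold lower than -Tx (-0.54, adjusted p = 0.00108), and KO/Y was 1.90-fold lower than +Tx (-0.93, adjusted p = 5.4e-05). The slide term left the KO/Y fold at -1.50. All 3 probes were lower in KO/Y than in -Tx, but by unequal amounts: -1.46 for the probe at position 2406, -0.93 for the one at 1122 and -0.58 for the one at 2084. The probe at 2406, which gave the largest fall, was designed on a different RefSeq transcript from the other 2. Its position is therefore not on the same scale as theirs. At 2084 the KO/Y arrays read 0.98, 0.76 and 0.90, the +Tx arrays 1.06, 0.99 and 1.10, and the -Tx arrays 1.45, 1.47 and 1.46. On this probe KO/Y and +Tx differed by -0.17 and did not pass (adjusted p over all probes = 0.129).

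Tinf2, the link between Terf1, Terf2 and Acd, stood at 0.60, 0.73 and 0.65 in KO/Y, 1.11, 1.02 and 0.94 in +Tx and 1.53, 1.73 and 1.67 in -Tx cells. It was 1.98-fold lower in KO/Y than in -Tx cells (-0.98, adjusted p = 2.13e-05), and its other probe, across the exon junction, gave -1.14. Terf1, which binds the repeat and aids its replication, stood at 2.95, 2.87 and 2.69 in KO/Y, 3.33, 3.30 and 3.35 in +Tx and 3.58, 3.69 and 3.76 in -Tx cells. Again the 3 groups did not overlap for either gene. Terf1 was 1.79-fold lower in KO/Y than in -Tx (-0.84, adjusted p = 6.32e-05) and 1.27-fold lower in +Tx than in -Tx (-0.35, adjusted p = 0.0147). With the slide term the last of these differences stayed at -0.35 but did not pass (adjusted p = 0.119).

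The remaining shelterin genes changed less on their brightest probes. Acd, which also recruits telomerase to the chromosome end, was lower in KO/Y than in -Tx by -0.46 (adjusted p = 0.00103) and in +Tx than in -Tx by -0.34 (adjusted p = 0.0113). With the slide term the Acd differences were -0.37 and -0.28 and did not pass (adjusted p = 0.0961 and 0.146). Pot1a, the single-strand binder, was lower in KO/Y than in -Tx by -0.22 (adjusted p = 0.0238, or 0.346 with the slide term). In +Tx over -Tx and KO/Y over +Tx it differed by -0.16 and -0.06 and did not pass (adjusted p = 0.111 and 0.555). A dimmer Pot1a probe gave -0.52 in KO/Y over -Tx. That probe gave 0.29 in +Tx over -Tx and -0.81 in KO/Y over +Tx (adjusted p over all probes = 0.197 and 0.00518). Terf2ip differed by -0.20 in KO/Y (adjusted p = 0.0648) and passed in no comparison. Pot1b was the 1 member not tested. Its probe, printed in 10 spots, was well above background on no array and read -5.17 to -4.78 in KO/Y, -5.08 to -4.40 in +Tx and -4.24 to -4.21 in -Tx cells.

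**Figure D2:**
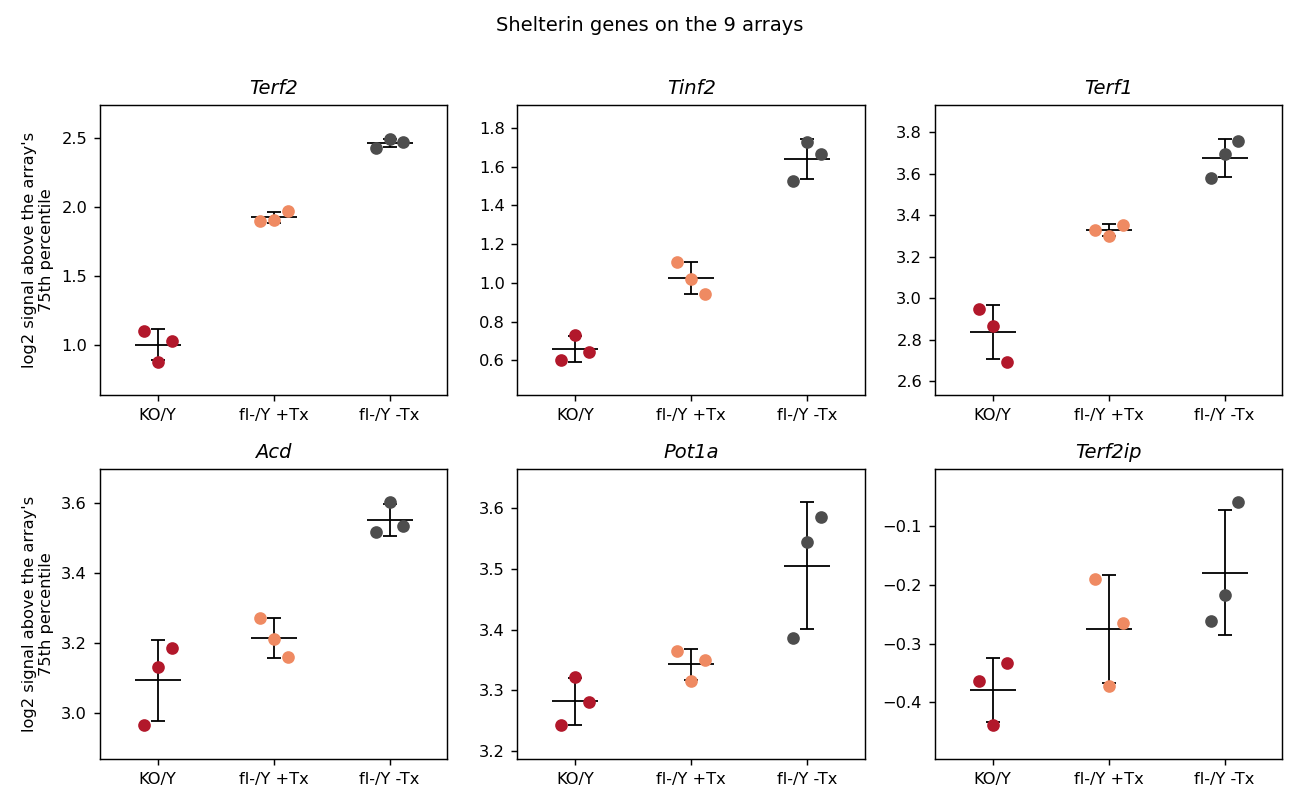
Level (log2 signal relative to its array's 75th percentile) of 6 shelterin genes on each of the 9 arrays (points), with the mean and SD of each group of 3; each panel has its own scale. Terf2, Tinf2 and Terf1 show 3 separate levels with KO/Y lowest, whereas KO/Y and +Tx overlap for Acd, Pot1a and Terf2ip. For Terf2ip +Tx also overlaps -Tx.

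The promoters of the 2 shelterin genes with the largest falls and of Smc6, the member with the largest rise, are shown so that genes moving in opposite directions can be read side by side. Each is the 250 bases before the RefSeq start (GRCm38.p6), written 5′ to 3′ along the gene: Terf2 at chr8:107096546-107096795 on the minus strand, Tinf2 at chr14:55681818-55682067 on the minus strand and Smc6 at chr12:11265636-11265885 on the plus strand. Capitals mark CCGGAAG, a core bound by ETS factors, and CCAAT, the box bound by NF-Y, on either strand.
Terf2 promoter: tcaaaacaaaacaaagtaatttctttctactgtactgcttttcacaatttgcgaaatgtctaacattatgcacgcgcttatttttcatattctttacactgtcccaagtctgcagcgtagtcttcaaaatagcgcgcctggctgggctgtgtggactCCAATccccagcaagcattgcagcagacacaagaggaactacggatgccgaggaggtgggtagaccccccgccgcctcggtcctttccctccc
Tinf2 promoter: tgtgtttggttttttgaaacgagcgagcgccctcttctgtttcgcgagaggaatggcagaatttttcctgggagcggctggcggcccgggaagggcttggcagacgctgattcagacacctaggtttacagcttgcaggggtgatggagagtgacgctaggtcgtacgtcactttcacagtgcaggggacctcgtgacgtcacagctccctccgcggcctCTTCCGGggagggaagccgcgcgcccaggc
Smc6 promoter: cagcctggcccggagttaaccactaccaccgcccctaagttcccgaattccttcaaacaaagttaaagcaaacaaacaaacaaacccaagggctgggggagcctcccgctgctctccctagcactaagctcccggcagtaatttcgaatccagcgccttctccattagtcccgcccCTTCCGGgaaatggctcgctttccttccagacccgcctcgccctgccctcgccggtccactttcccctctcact
Tinf2 and Smc6, which moved in opposite directions, each held 1 CCGGAAG, and Terf2 held 1 CCAAT. RefSeq windows of 300 bases, from 250 before to 50 after the start, matched 30 of the 38 members, and 9 motifs were searched in them on both strands. CCGGAAG was in the windows of 11 of these 30 genes and of 9.93% of 27025 genes, CCAAT in 18 of 30 and 41.1%, and GGGCGG, the box of Sp factors, in 20 of 30 and 38.2%. TTTCCCGC, an E2F site, was in 4 of 30 and 1.24%, and TTTGGCGC, another, in 0 of 30 and 0.585%. AAGGTCA, the monomer site of orphan nuclear receptors such as Nr5a2, to which Nr0b1 binds, was in 2 of 30 (Nhp2 and Smc5) and 5.38%, and its longer form TCAAGGTCA in 0 of 30 and 0.466%. The telomere repeat unit TTAGGG was in 4 of 30 and 12% (Pot1b, Smc6, Trp53bp1 and Xrcc6), and the E box CACGTG in 2 of 30 and 8.09%. These are matches of letters and were not measured as binding.

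Among the telomerase genes, 3 of 5 were lower and 1 was higher in KO/Y than in -Tx cells (26.4 and 20.5% of all genes). Tert, the catalytic subunit, was dim: it read -2.69, -2.16 and -2.88 in KO/Y, -1.87, -2.55 and -2.12 in +Tx and -2.02, -1.95 and -1.94 in -Tx cells. The -Tx arrays agreed closely while the KO/Y and +Tx arrays scattered and overlapped each other, with all 3 KO/Y arrays below the -Tx arrays. Tert was 1.53-fold lower in KO/Y than in -Tx (-0.61, SE 0.21, adjusted p = 0.0394). This call was lost when any 1 of 6 arrays was left out (largest adjusted p = 0.128, without KO/Y replicate 3, at -0.46), and with slide as a term the difference was -0.15 (adjusted p = 0.809). Between +Tx and -Tx cells it differed by -0.21 and did not pass (adjusted p = 0.483).

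The H/ACA proteins that bind the telomerase RNA did not move together. Dkc1 (dyskerin), the pseudouridine synthase of the complex, read 1.47, 1.31 and 1.47 in KO/Y, 1.53, 1.63 and 1.62 in +Tx and 1.99, 1.95 and 1.95 in -Tx cells, and Nhp2 read 6.74, 6.97 and 7.02 in KO/Y, 6.93, 6.92 and 7.12 in +Tx and 7.30, 7.33 and 7.31 in -Tx cells. Both lay below all -Tx arrays in either deleted group. Dkc1 was lower by -0.55 in KO/Y (adjusted p = 0.00021) and by -0.37 in +Tx cells (adjusted p = 0.00455), and Nhp2 by -0.40 (adjusted p = 0.00564) and -0.32 (adjusted p = 0.0296). With the slide term the Nhp2 differences were -0.49 and -0.38 and did not pass (adjusted p = 0.0755 and 0.113). Nop10, their partner, was higher instead: 4.28, 4.44 and 4.47 in KO/Y, 4.46, 4.56 and 4.48 in +Tx and 4.05, 4.01 and 4.02 in -Tx cells. All 6 arrays of the deleted groups exceeded all 3 -Tx arrays, and the rise was 0.47 in +Tx (adjusted p = 0.00155) and 0.37 in KO/Y cells (adjusted p = 0.00187, or 0.128 with the slide term). Tep1, a protein associated with telomerase, differed by at most 0.11 and did not pass.

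Rtel1 and Daxx were lower only where KO/Y cells were compared. Rtel1, a helicase that unwinds telomere loops, read 3.31, 3.28 and 3.27 in KO/Y, 3.74, 3.68 and 3.88 in +Tx and 3.79, 3.84 and 3.79 in -Tx cells. Daxx, which with Atrx deposits the histone variant H3.3 at telomeres, read 3.82, 3.77 and 3.83 in KO/Y, 4.22, 4.24 and 4.27 in +Tx and 4.16, 4.27 and 4.27 in -Tx cells. For both genes the KO/Y arrays lay below the 6 others, which overlapped. In KO/Y over +Tx, Rtel1 was lower by -0.48 (adjusted p = 0.00105) and Daxx by -0.44 (adjusted p = 0.00095). In +Tx over -Tx, Rtel1 differed by -0.04 (adjusted p = 0.657) and Daxx by 0.01 (adjusted p = 0.939), and neither passed. Atrx passed in no comparison on its brightest probe (-0.14 to 0.10). Another of its probes was lower in KO/Y than in +Tx by -0.31 (adjusted p over all probes = 0.0413). Its dimmest probe gave -0.17 there and did not pass (adjusted p over all probes = 0.35).

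The 3 subunits of the MRN complex differed in their course. Mre11a, its nuclease, read 1.88, 1.87 and 1.98 in KO/Y, 2.17, 2.12 and 2.32 in +Tx and 2.65, 2.56 and 2.60 in -Tx cells. It was lower in KO/Y than in -Tx by -0.70 (adjusted p = 9.33e-05), in +Tx than in -Tx by -0.40 (adjusted p = 0.00505) and in KO/Y than in +Tx by -0.30 (adjusted p = 0.0165), with no overlap of the groups. The KO/Y over +Tx call was lost without KO/Y replicate 2 (adjusted p = 0.0535). On the shared slides alone the differences were -0.43 in +Tx over -Tx and -0.31 in KO/Y over +Tx and did not pass (adjusted p = 0.0549 and 0.114). Nbn, which docks the complex to Atm, read -1.42, -1.60 and -1.20 in KO/Y, -0.96, -1.23 and -1.30 in +Tx and -0.61, -0.87 and -0.68 in -Tx cells. The deleted groups overlapped each other and lay below -Tx, by -0.69 in KO/Y (adjusted p = 0.00247) and -0.44 in +Tx cells (adjusted p = 0.0363). With slide as a term neither passed (adjusted p = 0.243 and 0.402), and leaving out 1 array in 4 of 9 cases ended the +Tx call (largest adjusted p = 0.109).

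Rad50, the ATPase that tethers the ends, read 1.89, 1.79 and 1.78 in KO/Y, 1.34, 1.37 and 1.56 in +Tx and 1.82, 1.70 and 1.84 in -Tx cells. The +Tx arrays lay below both other groups, which overlapped. Rad50 was 1.29-fold lower in +Tx than in -Tx (-0.37, adjusted p = 0.0107) and 1.32-fold higher in KO/Y than in +Tx (0.40, adjusted p = 0.00691), while KO/Y and -Tx differed by 0.03 (SE 0.08, adjusted p = 0.788). On the shared slides alone, with 1 +Tx array against 3 -Tx arrays on one and 3 KO/Y against 2 +Tx arrays on the other, the differences were -0.45 and 0.35 and did not pass (adjusted p = 0.0695 and 0.0785). Its second, dimmer probe gave -0.15 in +Tx over -Tx (adjusted p over all probes = 0.339) and 0.41 in KO/Y over +Tx (adjusted p over all probes = 0.025). Neither kinase passed in any comparison on its brightest probe. Atm differed by 0.25 in +Tx over -Tx (adjusted p = 0.154) and by -0.31 in KO/Y over +Tx (adjusted p = 0.0916), and Atr by -0.05 to -0.01. Dimmer probes of both were lower in KO/Y than in +Tx, by -0.37 for Atm (adjusted p over all probes = 0.0143) and -0.45 for Atr (adjusted p over all probes = 0.00946).

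**Figure D3:**
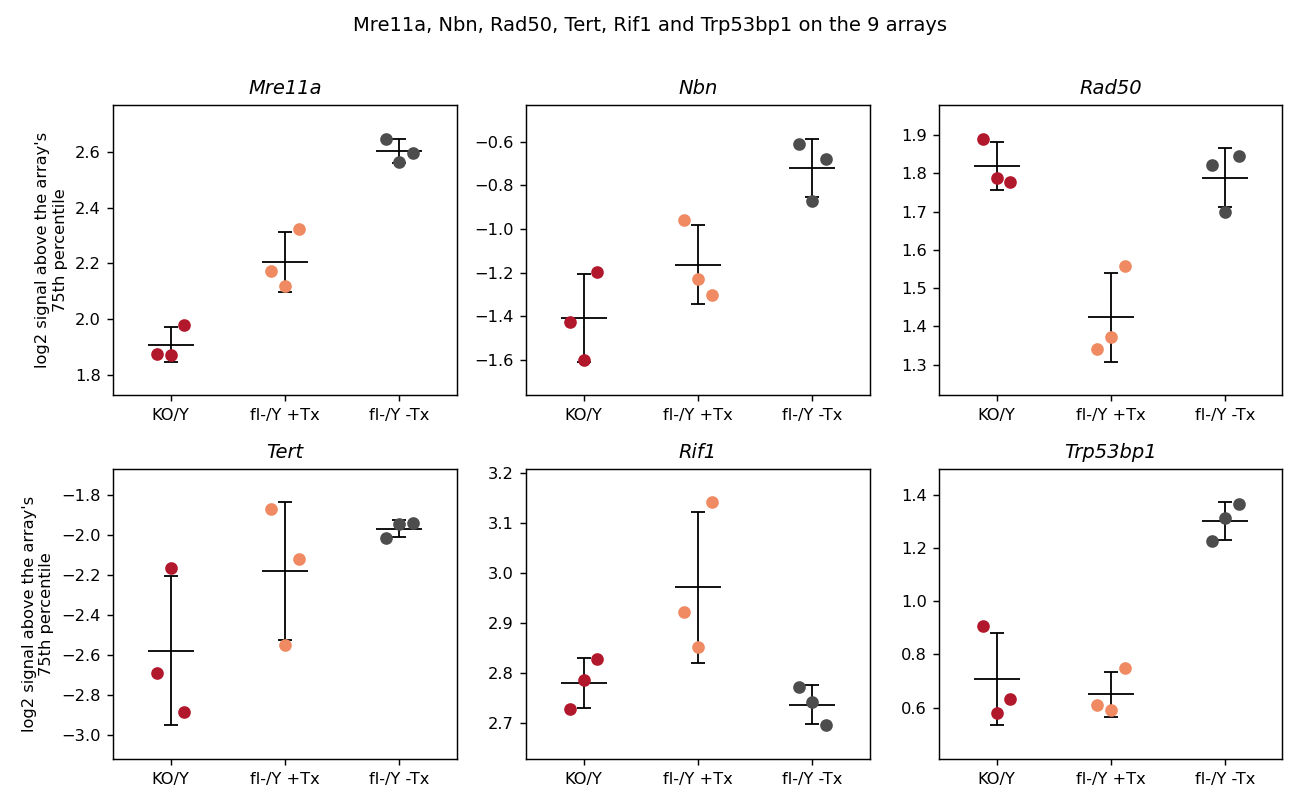
Level (log2 signal relative to its array's 75th percentile) of Mre11a, Nbn, Rad50, Tert, Rif1 and Trp53bp1 on the 9 arrays (points), with group mean and SD of 3; each panel has its own scale. Mre11a descends to its lowest level in KO/Y, whereas Rad50 is low on the +Tx arrays only and Tert scatters widely in KO/Y and +Tx.

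Homologous recombination held both the largest rise and a set of falls that appeared in KO/Y cells. Of 13 genes, 7 were lower and 1 higher in KO/Y than in -Tx cells, 2 were lower and 1 higher in +Tx than in -Tx cells, and 5 were lower and 1 higher in KO/Y than in +Tx cells. Over all genes 26.4, 14.7 and 14.1% were lower and 20.5, 11.9 and 12.1% higher in those comparisons, so that the +Tx over -Tx count was near the share of all genes. Smc6, which with Smc5 forms the core of a cohesin-like complex that guides recombination intermediates, read 1.42, 1.26 and 1.29 in KO/Y, 0.96, 1.11 and 1.07 in +Tx and 0.15, 0.11 and 0.18 in -Tx cells. Every array of a group lay above every array of the next. Smc6 was 2.26-fold higher in KO/Y than in -Tx (1.18, SE 0.07, adjusted p = 3.9e-06) and 1.87-fold higher in +Tx than in -Tx (0.90, adjusted p = 6.15e-05). The step between KO/Y and +Tx was 0.28 (adjusted p = 0.0184, or 0.0658 with slide as a term and without +Tx replicate 1). Its partner Smc5 did not pass on its brightest probe, with -0.17 in KO/Y and -0.27 in +Tx cells over -Tx and an SE of 0.18, and its other probe was lower by -0.40 in KO/Y (adjusted p over all probes = 0.0137).

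**Figure D4:**
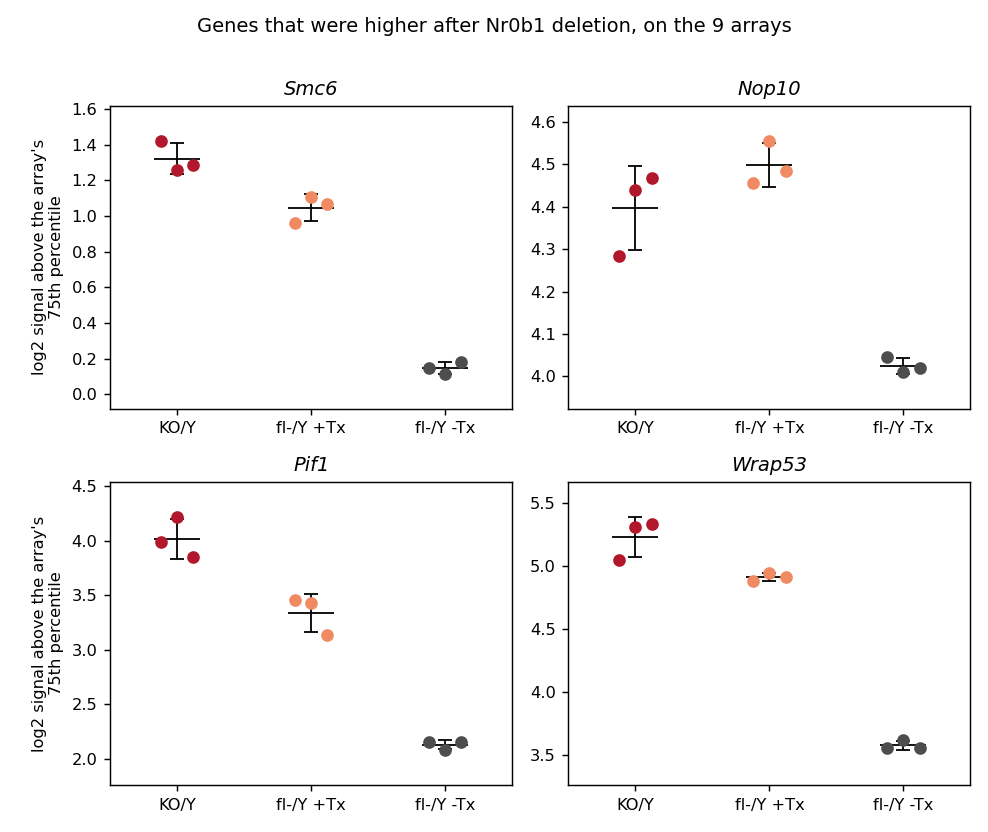
Level (log2 signal relative to its array's 75th percentile) on the 9 arrays (points) with group mean and SD of 3, of the members Smc6 and Nop10 and for Pif1 and Wrap53, other telomere genes outside the 38; each panel has its own scale. In all 4 panels the KO/Y and +Tx arrays lie above the -Tx arrays.

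Rad54l, Xrcc3, Blm and Wrn were lowest in KO/Y cells. Rad54l, a motor that promotes strand invasion, read 0.62, 0.63 and 0.64 in KO/Y, 1.27, 1.24 and 1.35 in +Tx and 1.35, 1.30 and 1.33 in -Tx cells. Xrcc3, which acts in homologous recombination, read -0.23, -0.09 and -0.14 in KO/Y, 0.39, 0.32 and 0.30 in +Tx and 0.47, 0.35 and 0.41 in -Tx cells. For both, the KO/Y arrays lay well below the other 6, and +Tx and -Tx overlapped. In KO/Y over +Tx the change was -0.65 for Rad54l (adjusted p = 0.000103) and -0.49 for Xrcc3 (adjusted p = 0.000867), and in +Tx over -Tx it was -0.04 (adjusted p = 0.629) and -0.07 (adjusted p = 0.436).

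The RecQ helicases Blm and Wrn, which unwind recombination intermediates and telomeric structures, were lower in KO/Y cells as well. Blm read 1.17, 1.10 and 1.29 in KO/Y, 1.62, 1.57 and 1.65 in +Tx and 1.82, 1.77 and 1.84 in -Tx cells, and Wrn read -3.08, -2.86 and -3.11 in KO/Y, -2.44, -2.45 and -2.27 in +Tx and -2.42, -2.13 and -2.50 in -Tx cells. Over -Tx, KO/Y was lower by -0.62 for Blm (adjusted p = 0.000102) and -0.67 for Wrn (adjusted p = 0.00142). Over +Tx it was lower by -0.43 (adjusted p = 0.002) and -0.63 (adjusted p = 0.00456). In +Tx over -Tx neither passed, though Blm, at -0.20, had no overlap between the groups (adjusted p = 0.0567). Wrn was dim, and its other probe was well above background on no array. The smallest Wrn falls of KO/Y in any alternative were -0.36 over -Tx and -0.32 over +Tx, and both calls held in every alternative. Rad52 was lower in KO/Y than in -Tx by -0.37 (adjusted p = 0.00173) and than in +Tx by -0.22 (adjusted p = 0.0397, or 0.0701 with the slide term).

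Fancd2 and Palb2 took the other course, with their fall already present at day 4. Fancd2, the protein that the Fanconi core complex ubiquitinates, read -1.62, -1.67 and -1.94 in KO/Y, -1.96, -1.84 and -1.75 in +Tx and -1.32, -1.25 and -1.25 in -Tx cells. It was lower by -0.58 in +Tx (adjusted p = 0.00331) and by -0.47 in KO/Y cells over -Tx (adjusted p = 0.00345), and the deleted groups overlapped. Palb2, which joins Brca1 to Brca2, read -1.44, -1.46 and -1.44 in KO/Y, -1.30, -1.57 and -1.43 in +Tx and -1.21, -0.90 and -1.05 in -Tx cells. Its falls of -0.39 and -0.38 over -Tx (adjusted p = 0.00874 in KO/Y and 0.0193 in +Tx) were not seen on a dimmer probe (-0.03 and 0.07). With the slide term the falls were -0.20 in KO/Y and -0.25 in +Tx and did not pass (adjusted p = 0.437 and 0.255). Brca1, Brca2, Rad51c and the nuclease scaffold Slx4 passed in no comparison, with fold changes in KO/Y over -Tx of -0.23 for Brca1, -0.14 for Brca2, -0.19 for Rad51c and -0.07 for Slx4. Brca1 was dim, with 1 of 3 KO/Y, 2 of 3 +Tx and 3 of 3 -Tx arrays well above background.

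Of the end joining genes, 4 of 5 were lower in KO/Y than in -Tx, 2 were lower in +Tx than in -Tx and 1 was lower in KO/Y than in +Tx cells, where 26.4, 14.7 and 14.1% of all genes were. Xrcc5 (Ku80) read 2.21, 2.23 and 2.19 in KO/Y, 2.46, 2.26 and 2.40 in +Tx and 2.79, 2.91 and 2.80 in -Tx cells. Xrcc6 (Ku70) read 3.51, 3.47 and 3.49 in KO/Y, 3.69, 3.66 and 3.76 in +Tx and 3.91, 3.84 and 3.82 in -Tx cells. Neither Ku gene overlapped between the groups. Xrcc5 was lower by -0.62 in KO/Y (adjusted p = 0.00014) and -0.46 in +Tx cells (adjusted p = 0.00213), and Xrcc6 by -0.37 in KO/Y cells (adjusted p = 0.000854), with -0.15 in +Tx cells (adjusted p = 0.0824). Xrcc6 was also the gene lower in KO/Y than in +Tx cells (-0.21, adjusted p = 0.0246, or 0.0606 with the slide term). The Ku-dependent kinase Prkdc was lower in KO/Y than in -Tx by -0.24 (adjusted p = 0.0402). With the slide term this difference was -0.35 and did not pass (adjusted p = 0.155).

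Trp53bp1, which shields broken ends from resection, read 0.91, 0.58 and 0.63 in KO/Y, 0.61, 0.59 and 0.75 in +Tx and 1.22, 1.31 and 1.36 in -Tx cells. On this probe it was lower by -0.59 in KO/Y (adjusted p = 0.00106) and -0.65 in +Tx cells (adjusted p = 0.00194). A much dimmer probe farther along the transcript gave 0.08 and -0.26 and passed in neither. Rif1, an effector of Trp53bp1 that in mouse ES cells also restrains Zscan4, read 2.73, 2.79 and 2.83 in KO/Y, 2.92, 2.85 and 3.14 in +Tx and 2.77, 2.74 and 2.69 in -Tx cells. The +Tx arrays were the highest, above all arrays of both other groups, yet the difference of 0.24 over -Tx missed the threshold (adjusted p = 0.0662), as did -0.19 in KO/Y over +Tx (adjusted p = 0.125). Of 21 alternatives for the difference of +Tx over -Tx, 3 gave a call (lowest adjusted p = 0.0197) and 18 did not. With slide as a term this difference was 0.19. KO/Y and -Tx overlapped, with a difference of 0.04 (SE 0.08, adjusted p = 0.703).

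**Figure D5:**
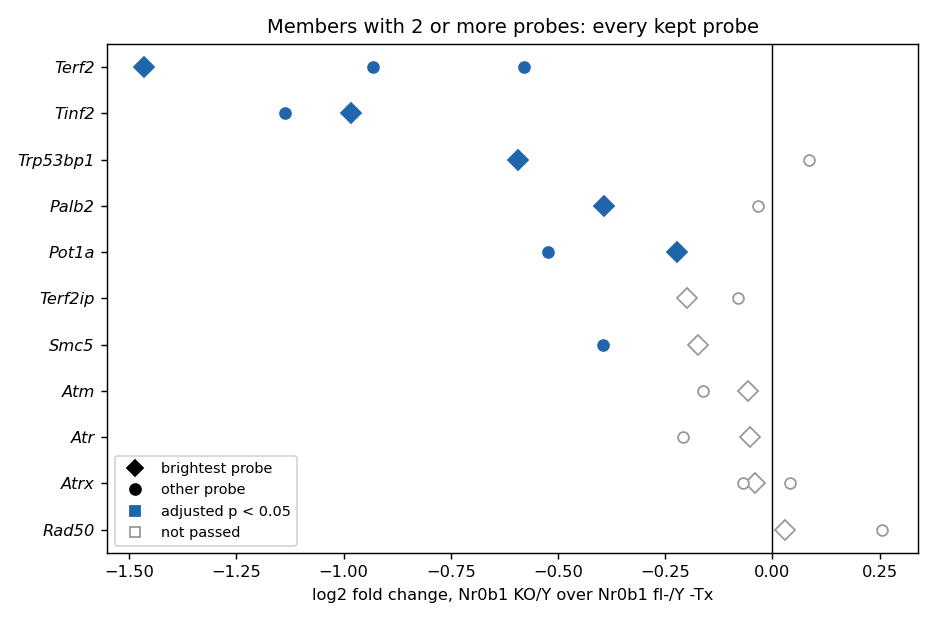
Log2 fold change of KO/Y over -Tx for every probe above the background limit of the 11 members with 2 or more such probes; diamonds are the brightest probe, circles the others, and filled symbols passed an adjusted p of 0.05 over all probes. All Terf2 and Tinf2 probes lie below -0.5, whereas the 2 probes of Trp53bp1 lie at -0.59 and 0.08.

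Genes of the same pathways outside the 38 were also lower more often than higher. Of 70 listed, 69 were tested, and 37 were lower and 4 higher in KO/Y than in -Tx, 25 lower and 4 higher in +Tx than in -Tx, and 29 lower and 5 higher in KO/Y than in +Tx cells. Over all genes 26.4, 14.7 and 14.1% were lower and 20.5, 11.9 and 12.1% higher. The medians of these genes were -0.27, -0.11 and -0.19 in that order, against -0.06, -0.06 and 0.01 over all genes. The same 2 of the 69 rose past 2-fold in KO/Y and in +Tx cells over -Tx, where 4.72 and 1.75% of all genes did. Both act at telomeres. Pif1, a helicase that strips telomerase from DNA ends in yeast, read 3.99, 4.22 and 3.85 in KO/Y, 3.45, 3.43 and 3.14 in +Tx and 2.16, 2.08 and 2.15 in -Tx cells. It was 3.70-fold higher in KO/Y (1.89, adjusted p = 4.83e-06) and 2.31-fold higher in +Tx than in -Tx cells (1.21, adjusted p = 0.000201), with no overlap between any groups. Wrap53, which carries telomerase to Cajal bodies, read 5.05, 5.31 and 5.34 in KO/Y, 4.88, 4.94 and 4.91 in +Tx and 3.56, 3.62 and 3.56 in -Tx cells. It was 3.15-fold higher in KO/Y (1.66, adjusted p = 1.44e-06) and 2.53-fold higher in +Tx than in -Tx cells (1.34, adjusted p = 1.56e-05). Both rises were larger in fold than that of Smc6, the member with the largest rise.

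Several other telomerase factors were lower. In KO/Y over -Tx, Naf1, which loads Dkc1 on the RNA, was at -0.84 (adjusted p = 1.47e-05) and Shq1, the chaperone of Dkc1, at -0.82 (adjusted p = 0.000119). In +Tx over -Tx, Gar1, the fourth H/ACA protein, was at -0.54 (adjusted p = 0.000703) and Stn1, which ends telomerase extension, at -0.55 (adjusted p = 0.000196). Pinx1, an inhibitor of telomerase, was higher in +Tx than in -Tx by 0.47 (adjusted p = 0.00824) and lower in KO/Y than in +Tx by -0.50 (adjusted p = 0.00572), while KO/Y and -Tx differed by -0.03 (adjusted p = 0.835). Among recombination genes, Rad54b (-1.10), Fancl (-1.07) and Exo1 (-1.01) were more than 2-fold lower in KO/Y than in -Tx cells, the last named after its values were seen. They were the only 3 of the 69 past 2-fold lower, where 2.84% of all genes were. Rad51d was lower by -0.59 in +Tx than in -Tx cells (adjusted p = 0.00171), a call that its other probe did not give (-0.13, adjusted p = 0.475). Of the break signalling and end joining genes, the ubiquitin ligase Rnf168 was at -0.90 (adjusted p = 4.08e-05) and the polymerase Polq at -0.90 (adjusted p = 0.000189) in KO/Y over -Tx cells, where the other Polq probe gave -0.16 and did not pass (adjusted p = 0.605). The histone H2ax was higher by 0.32 in +Tx (adjusted p = 0.0128) and 0.26 in KO/Y cells (adjusted p = 0.0152), and with the slide term these differences were 0.32 and 0.27 and did not pass (adjusted p = 0.106 and 0.214).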

How the data were processed

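RNA of 3 groups of mouse ES cells was hybridised to 9 single-colour 60-mer arrays on 2 slides. The authors scanned them with Agilent Feature Extraction 10.7.3.1 (named in the submitters' processing notes), and the deposited intensity files hold each spot's background-subtracted processed signal, its raw mean and its local background. The authors also deposited a table of linear signal with 1 column per group of 3 arrays, which was used only as an alternative for medians. Its column medians were -3.01 (KO/Y), -3.04 (+Tx) and -3.04 (-Tx) on the log2 scale, and each column correlated with the mean of the group's processed signals across spots (r = 1 after rounding). The factor by which it was scaled and how the arrays were combined in it are not given in the sources used.

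The log2 processed signal minus the array's 75th percentile was used after outlier spots (117 to 178 per array) had been left out and the spots of a probe averaged. Probes well above background on all 3 arrays of at least 1 group were kept (31188 of 55681 probes, and 50 of the members' 53), with each gene read from its brightest probe. Limma 3.58.1 in R 4.3.3 (lmFit, eBayes) was fitted to 22441 genes over 9 arrays, with Benjamini-Hochberg adjustment over all of them and a threshold of 0.05; a 2-fold limit was applied beside it. The fit was tested on simulated data. Symbols of 27235 probes were taken from RefSeq by accession. The number of arrays, 3 per group, limits the precision.

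Members, lists and tests were chosen with earlier results of these data known. All 38 members were accounted for; values on all arrays were given for up to 3 members per group with the largest rise and fall past the threshold in each comparison, and for Tert, Rif1, Rad50 and Mre11a. Of the other pathway genes, up to 2 per list and direction were eligible to be named. A gene of those lists is not reported here and was left out of their counts. Array numbers only name the arrays. Alternatives were normexp background correction (offset 50), other scalings, filters and probes, slide as a term, single slides and each array left out. The tables used held no columns of fold changes or p-values.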

Additional observations from a re-analysis of the deposited data

Results flagged for a closer look

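Rad50 was singled out because its 2 differences from -Tx cells had opposite signs and the groups differed by a test: 0.03 in KO/Y and -0.37 in +Tx cells over -Tx, with a difference of 0.40 between KO/Y and +Tx (limma, adjusted p = 0.00691), where all 3 KO/Y arrays exceeded all 3 +Tx arrays. The KO/Y difference from -Tx was near 0 and became -0.09 with slide as a term, so its sign is not settled. Daxx met the same criterion, with -0.43 in KO/Y and 0.01 in +Tx cells over -Tx and a difference of -0.44 (adjusted p = 0.00095) between KO/Y and +Tx, lower on 3 of 3 KO/Y arrays. Its +Tx difference from -Tx was likewise near 0 and became -0.013 with slide as a term, so the opposite signs did not hold there.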

How the results depend on the processing

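No paired analysis was possible because the array files carry no number that ties an array of 1 group to an array of another.

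Of the results given as counts or medians over the members, no direction turned under any alternative run. In KO/Y over -Tx, slide as a term gave 1 member higher in place of 2, and quantile normalization a median of -0.31 in place of -0.39. In +Tx over -Tx, slide as a term gave 8 members lower and the shared slide alone 4, in place of 13, and a gene's second brightest probe gave a median of -0.081 in place of -0.15. In KO/Y over +Tx, 1 member was higher in place of 2 with slide as a term, with no filter on dim probes and with only the 6 compared arrays, and 0 on the shared slide alone. Asking for over 2-fold as well left 1 higher and 1 lower in KO/Y over -Tx and 0 in either direction in the other 2 comparisons.

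With each of the 9 arrays left out, 20 to 23 members were lower and 2 higher in KO/Y over -Tx (median -0.41 to -0.37), 9 to 14 lower and 2 to 3 higher in +Tx over -Tx (median -0.15 to -0.10), and 9 to 12 lower and 1 to 2 higher in KO/Y over +Tx (median -0.19 to -0.14); the 1 came without +Tx replicate 1. Single genes changed sign on their second brightest probe in 3 cases: Trp53bp1 in KO/Y (0.085) and Palb2 in +Tx cells (0.072), both over -Tx, and Mad2l2, outside the 38, in KO/Y over -Tx (-0.068 in place of 0.24). Every kept probe taken on its own, an alternative added after seeing the data, gave 28 of 50 lower and 2 higher in KO/Y over -Tx. Of the 85 differences of named genes, some of which had no call in the main fit, 23 lost their call with slide as a term and 15 with no filter on dim probes. Calls were also lost on the shared slides alone. There, as with slide as a term, the +Tx over -Tx differences rest on 1 +Tx array. The cause was not tested. Dim genes such as Tert and Brca1 are limited by their signal over background.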
